A study of Mus musculus with 6 samples.

Results

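The genes described here are the 9 that encode the enzymes of arginine breakdown and of polyamine synthesis and catabolism: Arg1, Arg2, Odc1, Srm, Sms, Amd1, Sat1, Paox and Smox. They were taken as the identifiers of the deposited count table that carry these symbols, 9 of 45513 identifiers, with 1 identifier each. They were chosen by the function of their products. All 9 passed the filter on low counts, which 15513 identifiers passed.

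Arginase splits arginine into urea and ornithine, and ornithine decarboxylase turns ornithine into putrescine, the first polyamine. Spermidine synthase and spermine synthase then add aminopropyl groups that come from S-adenosylmethionine after its decarboxylation by the product of Amd1. Breakdown runs through acetylation by the product of Sat1 followed by oxidation by the product of Paox, or by direct oxidation of spermine by the product of Smox. In mouse skin, ornithine decarboxylase is a classical marker of the response of keratinocytes to tumour promoters and of growing hair follicles.

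RNA-seq gene counts came from keratinocytes isolated from the skin of 3 Lama3 KO mice and 3 control mice on a C57BL/6 background. The KO mice were Lama3 flox/flox with K14-CreERT. This Cre acts in basal keratinocytes that use the keratin 14 promoter, and the floxed segment spans exons 50 to 53 of Lama3, the gene of the alpha chain of laminin 332. The controls were Lama3 wt/flox with K14-CreERT per the design text, whereas their genotype label reads wild type. By the design text both groups thus carried the Cre and at least 1 floxed allele, and Cre was activated with tamoxifen chow at 400 mg per kg. The labels describe loss of laminin 332 as progressive and give neither age nor sex nor the time on tamoxifen. Mice are numbered 1 to 3 in each group after the sample titles.

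Total counts lay between 20126395 and 28473479 per library. Levels are CPM, the count relative to library size scaled by edgeR's TMM factors, given as mean ± SD over 3 mice. The verbs rose and fell are kept for genes called by the quasi-likelihood test of edgeR, with p-values adjusted by the Benjamini-Hochberg method over the 15513 genes tested and a threshold of 0.05. Fold changes are log2 of KO over control with the standard error (SE). Lama3 itself was examined first and had 97.3, 98.9 and 79.2 CPM in KO mice 1 to 3, against 140.8, 141.8 and 114.5 CPM in control mice 1 to 3. Its groups did not overlap, and its log2 fold change was -0.53 (SE 0.14, edgeR adjusted p 0.0215). That call was lost without KO 1 (adjusted p 0.0551), control 1 (0.0620) or control 2 (0.0584). Xist and Y-linked counts placed KO 1, KO 2 and control 1 as female and the other libraries as male.

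Of the 9 genes, 2 rose in KO keratinocytes (Srm and Amd1), 2 fell (Arg2 and Sms) and 5 were not called. For comparison, 17.4% of all tested genes were called higher and 18.8% were called lower, 36.2% in either direction. The KO and control libraries did not overlap for 5 of the 9 genes (Arg2, Srm, Sms, Amd1 and Paox), against 51.7% of all tested genes. The median log2 fold change was 0.09 over the 9 genes and -0.02 over all tested genes. The 4 calls among 9 genes are a share near that background, and the results below are those of single enzymes. With RNA from a bulk preparation, a lower level from fewer cells of a type and one from less RNA per cell cannot be told apart.

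**Figure D1:**
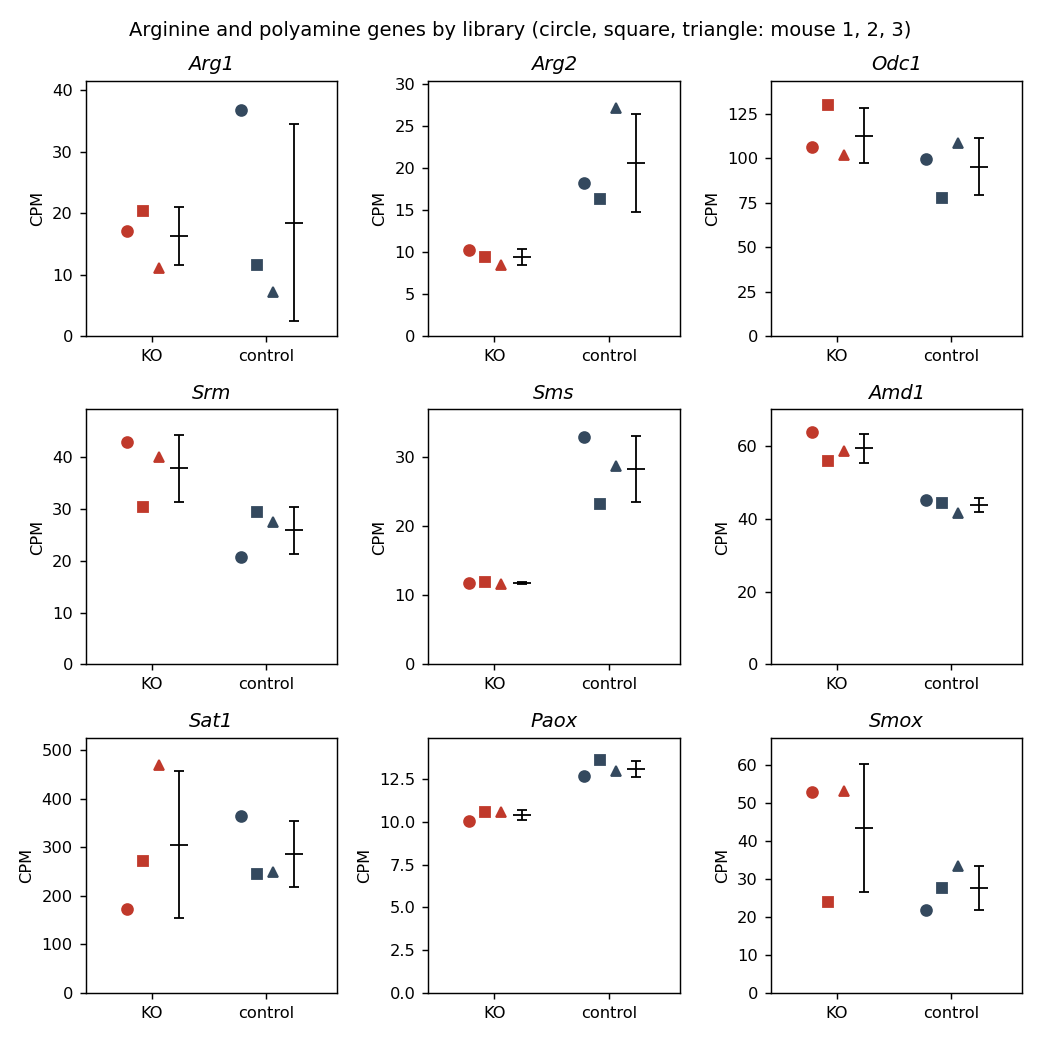
Level of each of the 9 genes in CPM (linear axis from 0) in the 3 Lama3 KO libraries (red, left) and the 3 control libraries (dark, right), with the mean and SD beside the points. The groups are apart for Arg2, Srm, Sms, Amd1 and Paox, and the spread is widest for Arg1 in controls and Sat1 in KO mice.

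The RNA levels of marker genes of cell types and of keratinocyte states differed between the groups. The 8 T cell markers all fell in KO preparations, and their summed level was 64.4 to 76.3 CPM in KO libraries and 143 to 290.3 CPM in controls. Of 10 tested markers of hair matrix, shaft and inner root sheath 9 fell, with sums of 38.0 to 40.97 CPM in KO libraries and 107 to 349.7 CPM in controls. Among melanocyte markers 5 of 6 fell (11.4 to 23.2 CPM in KO, 51.2 to 183 CPM in controls), and among proliferation markers 9 of 10 fell (153 to 267 CPM in KO, 346 to 493 CPM in controls). Suprabasal keratinocyte markers rose for 6 of 7 tested (25613 to 41213 CPM in KO, 9958 to 13810 CPM in controls). The 6 markers of wounded or stressed keratinocytes rose as well (4772 to 15679 CPM in KO, 2051 to 2451 CPM in controls). Basal keratinocyte markers, Krt5 and Krt14 among them, summed to 14173 to 18890 CPM in KO libraries and 13625 to 17624 CPM in controls, with 1 of 6 called higher and none lower, so the labelled cell type was present in both groups. Macrophage and monocyte markers, which matter here because macrophages can express Arg1, rose for 3 of 8 tested (C1qa, C1qb and C1qc) with overlapping sums of 39.2 to 59.6 CPM in KO libraries and 28.7 to 63.6 CPM in controls. Sebaceous gland markers fell for 4 of 6 (71.0 to 123 CPM in KO, 195 to 293 CPM in controls), and erythroid markers for 4 of 5 (1.82 to 3.00 CPM in KO, 13.3 to 23.2 CPM in controls). Langerhans and antigen-presenting cell markers fell for 2 of 6, with overlapping sums. Of the 8 neutrophil markers 1 was tested, Cxcr2, a chemokine receptor, which rose (9.22 to 31.8 CPM in KO, 0.302 to 1.89 CPM in controls, log2 fold change 4.55, edgeR adjusted p 0.00472). Ly6g, Elane and Retnlg were at 0 counts in each library, and Csf3r, Mpo, Camp and Ngp held 2 to 13 counts over the 6 libraries. The part of these differences in the levels of the 9 genes was not tested.

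The arginases were measured at similar levels per length in KO keratinocytes, and the mitochondrial one fell. Arg2 (ENSMUSG00000021125, chromosome 12, 79130777 to 79156301, plus strand, GRCm38) encodes the mitochondrial arginase found in many tissues outside liver. Arg2 had 10.3, 9.42 and 8.49 CPM in KO mice 1 to 3, against 18.3, 16.3 and 27.2 CPM in control mice 1 to 3. Each KO library lay below each control library, and control 3 was the highest. The log2 fold change was -1.13 (SE 0.21, 95% interval -1.62 to -0.65, edgeR adjusted p 0.00685), from means of 9.40 ± 0.891 CPM in KO and 20.6 ± 5.77 CPM in controls. The call held in each of the 17 alternatives, with adjusted p between 2.33e-05 and 0.0235. Of the 1428 exon bases of Arg2, 285 overlap exons of Vti1b on the opposite strand, and the use of strand in counting is not given in the sources used here. Vti1b, which encodes a SNARE protein of vesicle fusion, was not called (log2 fold change -0.10, SE 0.20, edgeR adjusted p 0.724).

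Arg1 (ENSMUSG00000019987, chromosome 10, 24915221 to 24927484, minus strand) encodes the cytosolic arginase, the last enzyme of the urea cycle in liver. Arg1 had 17.1, 20.4 and 11.1 CPM in KO mice 1 to 3, against 36.7, 11.6 and 7.12 CPM in control mice 1 to 3. Control 1 was the highest of the 6 libraries and control 3 the lowest, so the KO mice fell inside the control range. The coefficient of variation was 29.1% in KO mice and 86.4% in controls. The log2 fold change was -0.19 (SE 0.57, 95% interval -1.52 to 1.14, edgeR adjusted p 0.815), an interval that spans a change in either direction. Without control 1 the direction turned, to a log2 fold change of 0.80 (edgeR adjusted p 0.107), and without KO 3 it was 0.03 (adjusted p 0.975). Control 1 also had the highest sum of macrophage and monocyte markers (63.6 CPM) and of T cell markers (290.3 CPM). Its sum of Langerhans and antigen-presenting cell markers was the highest too (1358 CPM, against 460 to 640 CPM in KO mice). Control 3, lowest in Arg1, came next in both T cell markers (231 CPM) and Langerhans and antigen-presenting cell markers (981 CPM). Control 2 had 143 and 492 CPM of these. KO 2, second highest in Arg1, had 70.6 CPM of T cell markers. The sums of macrophage and monocyte markers were 39.2, 59.1 and 59.6 CPM in KO mice 1 to 3. They were 28.7 and 41 CPM in control mice 2 and 3. The part of these cells in the Arg1 level was not tested.

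Within each library, the ratio of Arg1 to Arg2 per kilobase of exon was 1.07, 1.39 and 0.838 in KO mice 1 to 3, against 1.29, 0.454 and 0.168 in control mice 1 to 3. Expressed as a share of both arginases per length, Arg1 made up 45.6 to 58.1% in KO mice and 14.4 to 56.3% in controls. Control 1 lay among the KO mice and the other controls below them. The difference of the log2 ratio was 1.22 with p = 0.3 in an exact 2-sided permutation test (the smallest p that 3 against 3 mice allow is 0.1), so no difference was shown. It moved from 0.49 without control 3 to 1.96 without control 1.

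The genes whose log2 CPM followed Arg1 most closely over the 6 libraries were Fuca2 (Pearson r 0.992), Plekha3 (0.983) and Dnajb4 (0.981), out of 10694 genes compared at a mean of at least 5 CPM. These correlations share libraries and group labels and are a description.

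**Figure D2:**
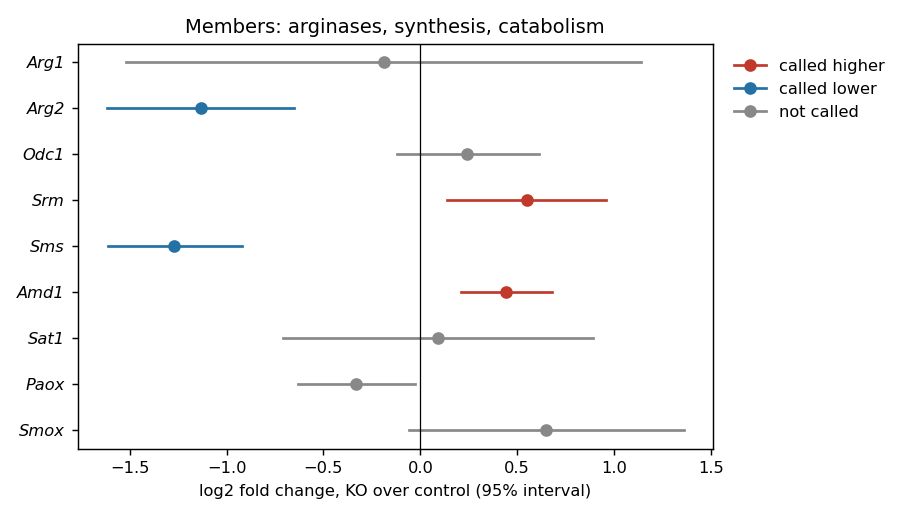
Log2 fold change of the 9 genes, Lama3 KO over control, with 95% intervals from edgeR. The intervals of Arg2 and Sms lie below 0 and those of Srm and Amd1 above it, while the widest interval, that of Arg1, runs from -1.52 to 1.14.

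Odc1, Amd1, Srm and Sms carry out polyamine synthesis. In KO keratinocytes the gene of spermidine synthase and that of the aminopropyl donor rose by a moderate amount, the gene of spermine synthase fell, and that of the first enzyme was not called. Odc1 (ENSMUSG00000011179, chromosome 12, 17544794 to 17551505, plus strand) encodes ornithine decarboxylase, a protein with a very short life that is degraded when bound by antizyme. Odc1 had 107, 130.3 and 102 CPM in KO mice 1 to 3, against 99.5, 77.9 and 109 CPM in control mice 1 to 3. KO 2 was the highest library and control 2 the lowest, and the groups overlapped. The log2 fold change was 0.24 (SE 0.16, 95% interval -0.12 to 0.61, edgeR adjusted p 0.255), so a change of more than 0.61 upwards or 0.12 downwards lay outside the interval. Closest to Odc1 over the 6 libraries were Wdr37 (Pearson r 0.986), Ttbk2 (0.973) and Xiap (0.942).

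Amd1 (ENSMUSG00000075232, chromosome 10, 40287458 to 40302186, minus strand) encodes S-adenosylmethionine decarboxylase. Its 250 promoter bases are shown as those of a gene that rose, beside those of Sms, the gene of the group with the largest absolute fold change. Both come from the RefSeq promoter table for build GRCm38.p6, read 5′ to 3′ on the minus strand up to the base before the annotated start, at chr10:40302189-40302438 for Amd1 and chrX:157492288-157492537 for Sms. Capitals mark CACGTG, the palindromic E-box that MYC and MAX and the USF factors can bind.
Amd1 promoter: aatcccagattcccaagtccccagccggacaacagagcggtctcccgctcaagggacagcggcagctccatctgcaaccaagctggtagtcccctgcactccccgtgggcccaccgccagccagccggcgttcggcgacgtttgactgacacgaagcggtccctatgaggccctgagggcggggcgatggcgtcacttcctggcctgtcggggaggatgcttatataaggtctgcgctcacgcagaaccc
Sms promoter: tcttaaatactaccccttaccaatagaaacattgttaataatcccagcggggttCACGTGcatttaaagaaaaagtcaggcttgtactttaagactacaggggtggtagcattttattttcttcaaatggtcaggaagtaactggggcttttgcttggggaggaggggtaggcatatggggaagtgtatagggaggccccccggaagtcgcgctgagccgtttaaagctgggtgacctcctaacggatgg
The table held a promoter for 6 of the 9 genes, and Arg1, Arg2 and Srm had no entry in it. CACGTG was found once in the Sms window, 196 bases before the start, and in none of the other 5 windows. It stands in 6.02% of 32851 RefSeq promoter windows of the same length. GGGCGG, the GC box, searched on both strands, was absent from the Sms window alone. It occurred once in the windows of Amd1 and Paox, 2 times in that of Sat1, 4 times in that of Odc1 and 6 times in that of Smox. Of all windows, 32.7% held at least 1. Neither TATAAA (12.4% of all windows) nor TGACGTCA (1.55%) was found in the 6 windows. These matches describe letters and not binding. The Paox entry begins 9858 bases from the gene start in the annotation used here, so its window lies apart from that start. For Smox this distance was 366 bases, so its window also lies apart from the gene start, and for Odc1 it was 79 bases.

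Amd1 had 63.7, 55.9 and 58.6 CPM in KO mice 1 to 3, against 45.2, 44.4 and 41.5 CPM in control mice 1 to 3. Each KO library lay above each control library, and both groups were narrow. Amd1 rose by a log2 fold change of 0.44 (SE 0.10, 95% interval 0.21 to 0.68, edgeR adjusted p 0.0147), with means of 59.4 ± 3.97 CPM in KO and 43.7 ± 1.94 CPM in controls. The call was lost without KO 1 (adjusted p 0.0509) or control 3 (0.0607). Translation of the Amd1 messenger is known to be held back by polyamines through a short upstream reading frame, which lies 296 bases before the main start codon in the GENCODE transcript and is shown because transcript counts do not read this control. Capitals mark its start and stop codons.
Amd1 upstream reading frame: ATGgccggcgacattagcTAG

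Amd1 has near-identical copies in the mouse genome. Amd2, counted separately in the table, matched it at 99.6% over 3202 transcript bases, and their longest reading frames of 1005 bases differ at 1 base, G796C, with positions counted from 1 at the A of the start codon. The 60 coding bases around it, positions 766 to 825, show how little separates reads of the copies, with the differing base in capitals.
Amd1: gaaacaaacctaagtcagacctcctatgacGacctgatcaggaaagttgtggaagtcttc
Amd2: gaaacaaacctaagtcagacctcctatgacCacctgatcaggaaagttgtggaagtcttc
Amd2 held 963 counts over the 6 libraries, 12.4% of those of Amd1, and rose too, with a log2 fold change of 0.77 (SE 0.17, edgeR adjusted p 0.0130). The processed copies Amd-ps3 (1309 counts, log2 fold change 0.58, adjusted p 0.0626) and Amd-ps4 (126 counts, 1.00, adjusted p 0.0557) were not called, although Amd-ps3 was without KO 3 (adjusted p 0.0330), with DESeq2 (0.0369) and with no filter on low counts (0.0457). Reads cannot be divided between these genes with certainty, since the treatment of reads with more than 1 match is not given in the sources used here. With the counts of the copies added to those of Amd1 the log2 fold change was 0.50 (edgeR adjusted p 0.0104).

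Srm (ENSMUSG00000006442, chromosome 4, 148591503 to 148594993, plus strand) encodes spermidine synthase, which makes spermidine from putrescine. Srm had 43.0, 30.5 and 40.1 CPM in KO mice 1 to 3, against 20.7, 29.4 and 27.6 CPM in control mice 1 to 3. The groups did not overlap, but KO 2 lay close above control 2. Srm rose by a log2 fold change of 0.55 (SE 0.18, 95% interval 0.14 to 0.96, edgeR adjusted p 0.0446), from means of 37.9 ± 6.55 CPM in KO and 25.9 ± 4.59 CPM in controls. The call stood close to the threshold and was lost without KO 1 (adjusted p 0.133), KO 3 (0.0901), control 1 (0.112) or control 3 (0.0843), and with upper-quartile scaling (0.116).

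Sms (ENSMUSG00000071708, chromosome X, 157443855 to 157492287, minus strand) encodes spermine synthase, which makes spermine from spermidine. Sms had 11.8, 11.9 and 11.6 CPM in KO mice 1 to 3, against 32.8, 23.3 and 28.7 CPM in control mice 1 to 3. The KO libraries were close to one another and all below the controls, which spread more widely. Sms fell by 1.27 on the log2 scale (SE 0.15, 95% interval -1.61 to -0.92, edgeR adjusted p 0.00177), with a rank of 260 by p among the 15513 tested genes. The call held in each of the 17 alternatives, with adjusted p between 1.32e-10 and 0.0102. Because Sms is X-linked and the groups differed in sex, a fit with sex as a covariate was run, which gave -1.32 (edgeR adjusted p 0.00204).

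Sms-ps, a processed pseudogene at 62775585 to 62776685 on the same chromosome, is identical to Sms over 1101 bases. It held 2379 counts, 81.5% as many as the 2918 of Sms, and averaged 9.13 ± 0.554 CPM in KO and 23.4 ± 4.83 CPM in controls (log2 fold change -1.36, SE 0.18, edgeR adjusted p 0.00236). Reads from those 1101 of the 6010 exon bases of Sms are therefore not separable from reads of this copy, and the level of Sms by itself is uncertain. Sms with its copies added fell by 1.31 on the log2 scale (edgeR adjusted p 0.00150). Since Sms and Sms-ps each fell, this sum gives the direction of both together and cannot show that of Sms alone.

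**Figure D3:**
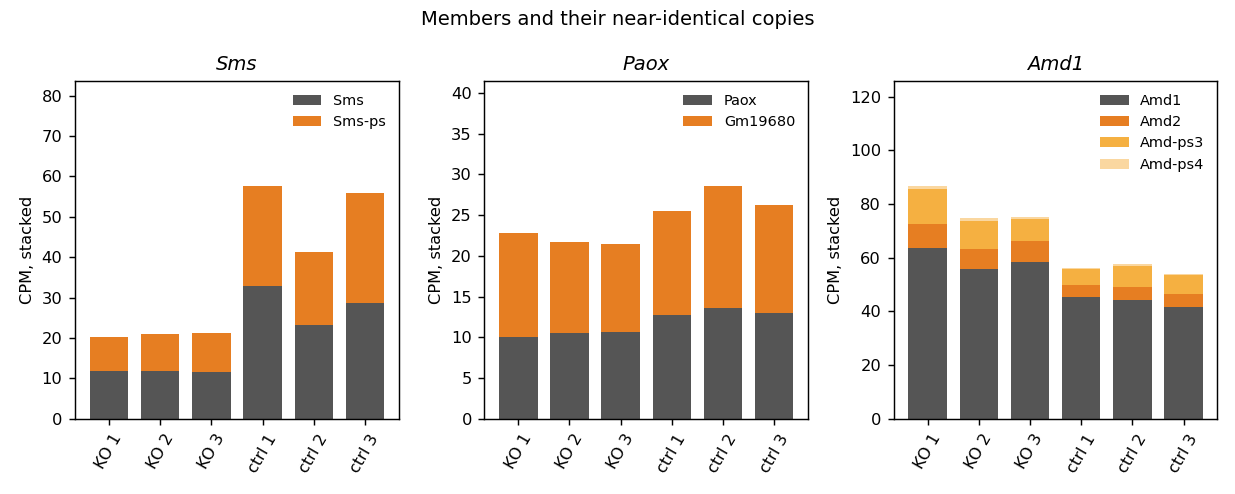
Stacked CPM (linear axis from 0) of Sms, Paox and Amd1 with their near-identical copies, in KO libraries 1 to 3 (left) and control libraries 1 to 3 (right). The Sms stack is lower in each KO library than in each control library, and the Amd1 stack is higher. Whether reads that match both a gene and a copy were counted once, more than once or not at all is not given.

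The ratio of Sms to Srm per kilobase of exon was 0.0728, 0.104 and 0.0768 in KO mice 1 to 3, against 0.422, 0.211 and 0.277 in control mice 1 to 3. The groups did not overlap. The means were 0.0845 ± 0.0169 in KO and 0.303 ± 0.108 in controls, and the difference of the log2 ratio was -1.80, with p = 0.1 by a 2-sided exact permutation test, the smallest p that 3 against 3 can give. Leaving out single libraries gave -2.03 to -1.53. Each KO library lay below each control library in Sms and above each in Srm. The separation of the ratios and their p were thus fixed by those levels and are no further result. The Sms counts in the ratio also include reads not separable from Sms-ps.

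**Figure D4:**
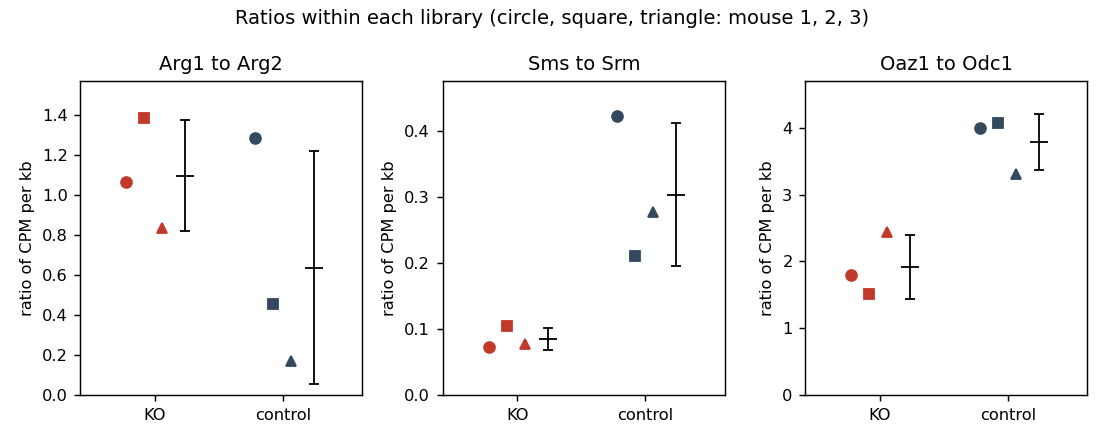
Ratios of CPM per kilobase of exon within each library for Arg1 to Arg2, Sms to Srm and Oaz1 to Odc1 (linear axes from 0), KO left and control right, with mean and SD. The Sms to Srm and Oaz1 to Odc1 ratios are lower in each KO mouse than in each control mouse, while the Arg1 to Arg2 ratios overlap. For Sms to Srm this follows from the separate levels of both genes.

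Among the genes of catabolism, none was called, and the spread between mice was the widest of the 9 genes for KO mice in Sat1 and Smox. Sat1 (ENSMUSG00000025283, chromosome X, 155213132 to 155216449, minus strand) encodes the acetyltransferase that starts polyamine breakdown and export. Sat1 had 173.5, 271 and 470.4 CPM in KO mice 1 to 3, against 365, 245 and 249.7 CPM in control mice 1 to 3. KO 3 was the highest and KO 1 the lowest of the 6 libraries, so the control range lay inside the KO range. The log2 fold change was 0.09 (SE 0.35, 95% interval -0.71 to 0.89, edgeR adjusted p 0.855). It was -0.36 without KO 3 (adjusted p 0.314) and 0.11 with sex as a covariate (adjusted p 0.828).

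Smox (ENSMUSG00000027333, chromosome 2, 131491496 to 131525922, plus strand) encodes spermine oxidase, which returns spermine to spermidine and releases hydrogen peroxide. Smox had 53.1, 23.9 and 53.3 CPM in KO mice 1 to 3, against 22.0, 27.6 and 33.6 CPM in control mice 1 to 3. KO 1 and KO 3 lay above the controls and KO 2 lay among them. The log2 fold change was 0.65 (SE 0.31, 95% interval -0.06 to 1.36, edgeR adjusted p 0.132). Without KO 2 it was 0.95 with an adjusted p of 0.0137, so that library decided the call.

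Paox (ENSMUSG00000025464, chromosome 7, 140115799 to 140137224, plus strand) encodes the peroxisomal oxidase of acetylated polyamines. Paox had 10.1, 10.6 and 10.6 CPM in KO mice 1 to 3, against 12.7, 13.6 and 13.0 CPM in control mice 1 to 3. The groups did not overlap and were both narrow, but the difference did not pass the threshold, with a log2 fold change of -0.33 (SE 0.13, 95% interval -0.63 to -0.03, edgeR adjusted p 0.0791). With upper-quartile scaling, which shifted the median of all genes by -0.15, it was called at -0.48 (adjusted p 0.0232). The processed pseudogene Gm19680, 99.9% identical over 1358 bases, held 1868 counts, 107% of the 1744 of Paox, and was not called (log2 fold change -0.24, edgeR adjusted p 0.209). Reads over those bases cannot be divided with certainty between Paox and this copy, so the level of Paox by itself is uncertain. With the counts of the copy added Paox was not called either. Paox also shares 142 exon bases with Echs1 on the opposite strand. Echs1, which encodes a mitochondrial enoyl-CoA hydratase, fell (log2 fold change -0.85, SE 0.14, edgeR adjusted p 0.00448), and its part in the counts of Paox was not tested.

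Per kilobase of exon, Sat1 had the highest level of the 9 genes in both groups, with 110.0 CPM per kilobase in KO and 103 in controls. In KO mice it was followed by Odc1 (33.2), Srm (23.7), Amd1 (16.8), Smox (11.2), Arg1 (7.28), Arg2 (6.58), Paox (2.12) and Sms (1.95 CPM per kilobase). The ranges over mice overlapped between Smox and Arg1 and between Arg1 and Arg2, so those neighbours in the order were not separated. In controls the order after Sat1 was Odc1 (28.02), Srm (16.2), Arg2 (14.4), Amd1 (12.3), Arg1 (8.29), Smox (7.12), Sms (4.70) and Paox (2.67 CPM per kilobase), with overlapping ranges from Srm through to Smox. Sms was thus below Paox in KO mice and above it in controls, each time with ranges that did not overlap, although copies hold a large share of the reads of both.

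The enzymes were set beside 61 further genes of the same pathways, of which 45 were tested. Of these 45, 10 rose, 11 fell and 24 were not called. The groups did not overlap for 27 of the 45, against 51.7% of all tested genes, and their median log2 fold change was -0.12. The shares called higher and lower were thus of the same order as the 17.4% and 18.8% of all tested genes.

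Among genes of arginine supply and use 2 of 12 tested rose and 5 fell (median log2 fold change -0.28). Ass1, the enzyme that joins citrulline and aspartate on the way to arginine, rose (34.6 ± 3.79 CPM in KO, 23.3 ± 2.69 CPM in controls, log2 fold change 0.57, SE 0.14, edgeR adjusted p 0.0160). Its call was lost without KO 1 (adjusted p 0.0554). Asl, which releases arginine in the next step, had 18.4 ± 0.564 CPM in KO and 15.0 ± 1.14 CPM in controls and was not called (adjusted p 0.0970). Oat, which turns ornithine away from polyamines towards glutamate and proline, fell (104 ± 9.79 CPM in KO, 151 ± 32.9 CPM in controls, log2 fold change -0.54, SE 0.17, adjusted p 0.0395). That call was lost on leaving out KO 1, KO 2, KO 3, control 1 or control 2 (adjusted p 0.0663 to 0.101).

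Pycr3, listed as Pycrl in the annotation, makes proline from the ornithine route. Pycr3 had 9.90, 8.48 and 10.2 CPM in KO mice 1 to 3, against 18.7, 15.6 and 14.4 CPM in control mice 1 to 3, and fell without overlap (log2 fold change -0.77, SE 0.16, edgeR adjusted p 0.00969). The enzymes of creatine synthesis, a route that begins from arginine, also fell, at low levels. Gamt averaged 1.42 ± 0.543 CPM in KO and 4.80 ± 2.09 CPM in controls (log2 fold change -1.75, SE 0.41, adjusted p 0.0153), and Gatm 0.371 ± 0.202 CPM in KO and 1.74 ± 0.761 CPM in controls (-2.23, SE 0.54, adjusted p 0.0167). Gatm was no longer called without control 3 (adjusted p 0.0539). Prodh, which begins the breakdown of proline and was named after its value was seen, rose (log2 fold change 0.83, SE 0.23, edgeR adjusted p 0.0266). Its call was lost on leaving out KO 2, control 1 or control 3 (adjusted p 0.0579 to 0.0802). Nos2, the inducible nitric oxide synthase that competes with arginase for arginine, had 1 count over the 6 libraries, and Otc had 0.

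Of the 14 tested transporters of cationic amino acids and polyamines 4 rose and 2 fell (median log2 fold change 0.24). Slc7a2, a carrier of arginine, lysine and ornithine, had 2.79, 2.23 and 2.76 CPM in KO mice 1 to 3, against 13.3, 17.96 and 15.6 CPM in control mice 1 to 3. The groups were far apart, and the log2 fold change of -2.59 (SE 0.19, edgeR adjusted p 0.000462) ranked 27 by p among all tested genes. Slc7a1, the other widely used carrier of arginine, had 27.5 ± 8.05 CPM in KO and 21.3 ± 3.35 CPM in controls and was not called (log2 fold change 0.37, SE 0.23, adjusted p 0.231), although it was without KO 3 (0.57, adjusted p 0.0457). Slc3a2, the heavy chain shared by several amino acid carriers, rose (215 ± 18.7 CPM in KO, 133 ± 26.0 CPM in controls, log2 fold change 0.70, SE 0.16, adjusted p 0.0154), a call lost without KO 1 (0.0511).

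The P5-type ATPase Atp13a3, which is linked to polyamine uptake, had 148, 135 and 98.7 CPM in KO mice 1 to 3, against 57.9, 64.0 and 63.8 CPM in control mice 1 to 3. Each KO library was above the controls (log2 fold change 1.04, SE 0.16, edgeR adjusted p 0.00375). Its relatives Atp13a5 (6.55 ± 3.15 CPM in KO, 1.04 ± 0.399 CPM in controls, 2.64, SE 0.47, adjusted p 0.00613) and Atp13a4 (14.1 ± 6.25 CPM in KO, 4.05 ± 1.79 CPM in controls, 1.80, SE 0.45, adjusted p 0.0188) rose too. Atp13a4 was named after its value was seen, and its call was lost without KO 1 (0.0529) and with no filter on low counts (0.0548). Atp13a2, a further relative also named after its value was seen, was not called, and its groups overlapped. It had 105.5 ± 5.31 CPM in KO and 88.9 ± 15.4 CPM in controls (log2 fold change 0.25, SE 0.14, edgeR adjusted p 0.190). Slc22a3, an organic cation carrier, fell (0.469 ± 0.0829 CPM in KO, 2.08 ± 0.803 CPM in controls, -2.14, SE 0.40, adjusted p 0.00716).

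**Figure D5:**
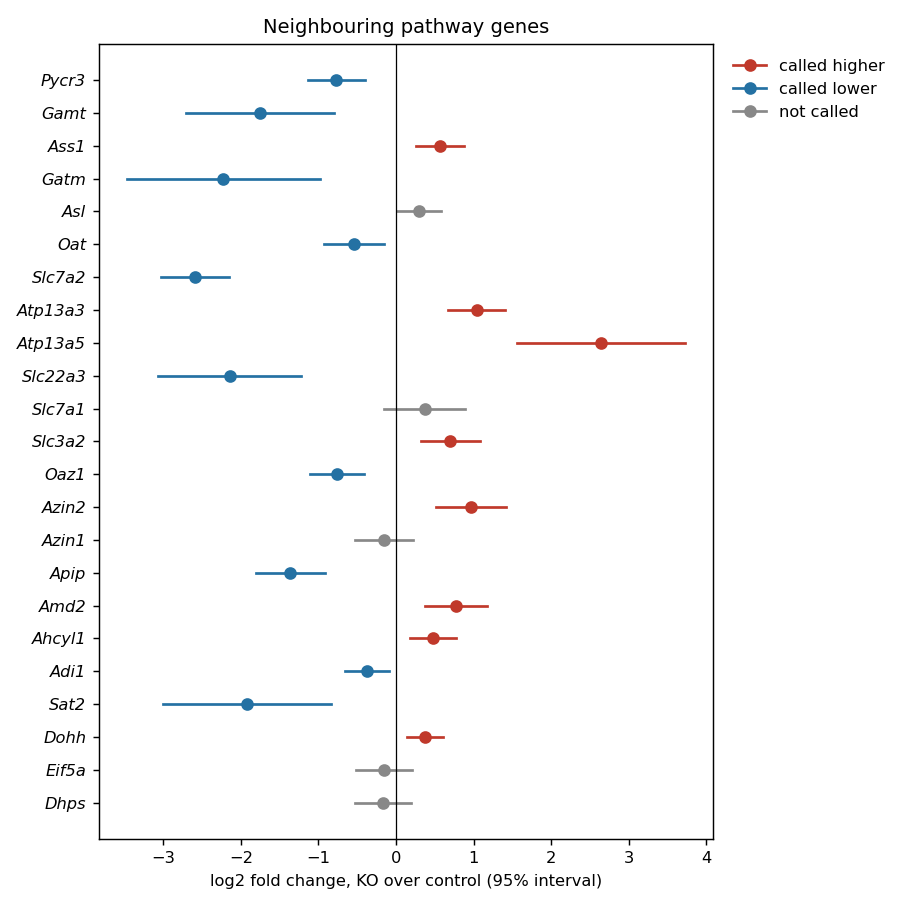
Log2 fold change, Lama3 KO over control, with 95% intervals from edgeR for 23 further pathway genes. Slc7a2, Gatm, Slc22a3, Sat2 and Gamt lie farthest to the left and Atp13a5 farthest to the right.

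Of 4 tested genes of antizymes and antizyme inhibitors 1 fell, the antizyme gene Oaz1, and 1 rose, the inhibitor gene Azin2. Oaz2, the other tested antizyme gene, named after its value was seen, was not called (log2 fold change -0.17, SE 0.11, edgeR adjusted p 0.266). Oaz1 encodes antizyme, which binds ornithine decarboxylase and sends it to the proteasome, and its translation needs a polyamine-driven frameshift at a stop codon. The 30 transcript bases around that site are shown with the stop codon of the first frame in capitals, since gene counts read the messenger and not the frameshift.
Oaz1 frameshift site: ctcggtggtgctccTGAtgtccctcaccca
Oaz1 had 143, 148 and 186 CPM in KO mice 1 to 3, against 299, 239 and 270.4 CPM in control mice 1 to 3. Each KO library lay below the controls, and the log2 fold change was -0.76 (SE 0.15, edgeR adjusted p 0.00877). Its processed pseudogene Oaz1-ps, 99.3% identical over 685 bases, held 21993 counts, 69.6% as many as Oaz1, and fell as well (108 ± 16.9 CPM in KO, 191 ± 24.2 CPM in controls, -0.82, SE 0.15, adjusted p 0.00706), so the split of reads between them is uncertain. Azin2, an antizyme inhibitor, rose (13.8 ± 3.11 CPM in KO, 7.05 ± 0.471 CPM in controls, 0.96, SE 0.20, adjusted p 0.00910). Azin1, the more abundant inhibitor per length, had 90.6 ± 9.93 CPM in KO and 101 ± 20.6 CPM in controls and was not called (-0.16, SE 0.16, adjusted p 0.471).

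The ratio of Oaz1 to Odc1 per kilobase of exon was 1.79, 1.51 and 2.44 in KO mice 1 to 3, against 3.995, 4.08 and 3.31 in control mice 1 to 3. Each KO ratio was below each control ratio. The means were 1.91 ± 0.476 in KO and 3.79 ± 0.422 in controls, and the difference of the log2 ratio was -1.01 with p = 0.1 by the 2-sided exact permutation test, the smallest p it can give. Leaving out single libraries gave -1.20 to -0.85.

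In the methionine cycle and the salvage of methylthioadenosine, the by-product of spermidine and spermine synthesis, 2 of 10 tested genes rose (Amd2 and Ahcyl1) and 2 fell. Apip, an enzyme of the salvage route, fell (4.58 ± 0.115 CPM in KO, 11.8 ± 2.43 CPM in controls, log2 fold change -1.37, SE 0.19, edgeR adjusted p 0.00294). Adi1, a later enzyme of that route, fell by 0.37 on the log2 scale (adjusted p 0.0470), a call lost on leaving out any library but KO 1 (0.0612 to 0.146), with no filter on low counts (0.0906) and with sex as a covariate (0.0547). Ahcyl1, a relative of the enzyme that hydrolyses S-adenosylhomocysteine, rose by 0.47 (adjusted p 0.0242), a call lost without KO 1 (0.0743), control 1 (0.0707) or control 3 (0.0682) and with upper-quartile scaling (0.0814). Mat2a, the gene of the synthetase that makes S-adenosylmethionine outside liver, had 1 count over the 6 libraries, a value too low to be read as expression of a gene that cells in general use.

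Spermidine also supplies the hypusine residue of the translation factor eIF5A. Eif5a had 606 ± 73.5 CPM in KO and 674 ± 16.8 CPM in controls (log2 fold change -0.15, SE 0.16, edgeR adjusted p 0.470), and Dhps, which begins the modification, 24.3 ± 2.55 CPM in KO and 27.3 ± 4.91 CPM in controls (-0.17, SE 0.16, adjusted p 0.423). Neither was called. Dohh, which completes it, rose by 0.37 (SE 0.10, adjusted p 0.0232), a call lost without KO 1 or any 1 control (0.0578 to 0.0661) and with upper-quartile scaling (0.23, adjusted p 0.114). Sat2, a relative of Sat1, fell at low depth (0.193 ± 0.113 CPM in KO, 0.730 ± 0.0503 CPM in controls, 66 counts in all, -1.92, SE 0.47, adjusted p 0.0172), and was not called without KO 2 (0.0528) or control 3 (0.0530). Of the 5 tested genes of this list, 1 rose and 1 fell.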

How the data were processed

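RNA was prepared from keratinocytes of 3 Lama3 KO and 3 control mice and read as paired ends of 100 bases each (per the labels). The authors deposited whole-number counts per gene for the 6 libraries in 1 table. The build was GRCm38 and the tools named are featureCounts 1.4.6, TopHat 1.3.3 and Cuffdiff 1.3.0, per the submitters' processing notes. Settings, annotation release, strand use and the treatment of reads with more than 1 match are not given in the sources used here.

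Symbols, positions and exon lengths came from GENCODE M21. The deposited counts were fitted in edgeR 4.0.16 under R 4.3.3 with group as the one term (filterByExpr, TMM factors, robust quasi-likelihood). The fit was tested on simulated data. Of 25742 identifiers with any count 15513 were tested. Levels per length divide CPM by the union of annotated exons. Copies were sought with blastn at 95% identity or more over at least 300 bases. Promoters came from RefSeq (GRCm38.p6).

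The 9 genes, the pathway and marker lists, the tests and the rule for named genes were chosen with earlier results of these data known. The rule took the 9 genes, from each pathway list the 4 called genes with the smallest p (where fewer than 2 were called, also the 2 tested genes with the smallest p), where tested also 12 genes next to a member whatever their result (Oaz1, Azin1, Ass1, Asl, Oat, Nos2, Slc7a1, Slc3a2, Mat2a, Eif5a, Dhps and Atp13a3), and 3 genes most like Arg1 and Odc1 each.

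Alternatives were DESeq2 size factors or upper-quartile factors, no filter or at least 1 CPM in 3 libraries, DESeq2 1.42.0, limma-voom (limma 3.58.1), no robust estimation, sex as a covariate, a replicate block, leaving out each library, an adjusted p under 0.01 and, added after seeing the data, copies added to the 9 genes. The labels name separate mice, so each library counted as 1 replicate. 1 called gene of the arginine list is not reported here.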

Additional observations from a re-analysis of the deposited data

How the results depend on the processing

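Across the 17 alternatives Arg2 and Sms kept their direction and their call, and Odc1 kept its direction and was not called. The Sms to Srm and Oaz1 to Odc1 ratios kept their direction in each of 9 alternatives, as did the Arg1 to Arg2 ratio. For Sms to Srm this followed from the separate levels of both genes. With upper-quartile factors, which shifted the median log2 fold change of all genes by -0.15, 1756 genes were higher and 3988 lower (30.6% higher, against 48.0% with TMM factors), Sat1 turned to -0.05 and Srm lost its call at 0.40 (adjusted p 0.116), which left 1 of the 9 genes higher, while Paox was called at -0.48. At an adjusted p under 0.01, 1115 genes were higher and 1009 lower, 0 of the 9 genes were higher (Srm 0.55, Amd1 0.44), and 3 pathway genes were higher and 5 lower. With limma-voom Arg1 was 0.13 and Sat1 -0.02. Leaving out 1 library in turn gave 1586 to 2754 higher and 1714 to 2771 lower genes, 0 to 3 of the 9 genes higher, 5 to 11 pathway genes higher and 7 to 9 lower. Under the same omissions the log2 fold change ranged from -0.57 to 0.80 for Arg1, 0.41 to 0.69 for Srm, 0.40 to 0.49 for Amd1, -0.36 to 0.38 for Sat1 and 0.48 to 0.95 for Smox. Arg1 turned to 0.03 without KO 3 and 0.80 without control 1, Sat1 to -0.36 without KO 3, and Azin1 to 0.03 without control 1 (lowest value -0.23). The cause of these changes was not tested. For the 23 named pathway genes, 328 of 366 values kept their side of the threshold and their direction, 36 lost the call, 1 gained it and 1 turned.

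The labels state no pairing of mice by replicate number. Deviations of same-numbered mice had correlations of -0.18, -0.06 and 0.44, and those of other pairs ran from -0.44 to 0.42. So few mice cannot decide whether the numbers pair them, and the block result is a check of the spread alone. With the replicate block Arg1 was 0.12, Srm 0.55 (adjusted p 0.0837) and 1 of the 9 genes was higher. No other of the 9 genes changed its call under the block, and the 3 ratios had p from 0.25 to 0.5, where 0.25 is the smallest possible.

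Groups of 3 mice limit each result to changes that are large against the spread between mice, and the spread was wide for Arg1, Sat1 and Smox. The split of reads between Sms, Paox, Amd1 and Oaz1 and their copies is uncertain over the bases they share.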
